A study of Danio rerio with 36 samples.

Results

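The nuclear genes of the mitochondrial respiratory chain were followed through regeneration of the zebrafish caudal fin. All gene symbols were taken whose names start as those of the subunits and assembly factors of complexes I to V (nduf, sdha to sdhd, uqcr, cyc1, cox4 to cox8 and atp5), which gave 93 of the 14781 genes counted. Complex I had 43 of these genes, complex II 8, complex III 9, complex IV 17 and complex V 16. By role, 23 encode core subunits, 61 accessory subunits and 9 assembly or coupling factors. The rule reads symbols and no expression values, but it was set with earlier results of these data known.

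The respiratory chain carries electrons from NADH (complex I) and succinate (complex II) through complex III and cytochrome c to oxygen (complex IV). Complexes I, III and IV pump protons across the inner mitochondrial membrane, and complex V, the ATP synthase, uses the returning protons to make ATP. Its subunits come from the nuclear genome and from mitochondrial DNA, except those of complex II, which are all nuclear, and several complex IV subunits exist as paired isoforms that differ between tissues or with oxygen supply.

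The study measured messenger RNA with a stranded kit in 18 libraries of EK fish, an outbred strain, wild type unless a deletion or transgene is named. A further 18 samples measured open chromatin and were not analysed here. Times are days post amputation (dpa), and 0 dpa stands for uninjured fins. Whole fins made up batch 1 (0 dpa, n = 2; 4 dpa, n = 2), batch 2 (labelled 0 dpa, n = 3; labelled 1 dpa, n = 3) and 4 single libraries of batch 3, at 0 and 2 dpa without and with the LEN deletion. LEN is an enhancer linked to the leptin gene lepb. Batch 3 also held fibroblasts at 0 dpa (n = 2) and 4 dpa (n = 2).

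Each whole-fin library pooled 15 fish and each fibroblast library 75. The labels give adults, from 4 to 12 months old in 1 protocol and from 3 to 12 months in another. The fibroblast fish carried a transgene driven by the promoter of tph1b, a gene of fin fibroblasts. One protocol names it as tph1b:mCherry-NTR and another as tph1b:creER, each with ubi:switch. In the latter, for the fibroblast libraries as a whole, clipped fins had 4 µM tamoxifen for 12 h at 2 dpa and then regrew for 2 months. A sort for mCherry is described for the accessibility samples only. In batch 2 the names of the deposited data give the injured and uninjured groups the other way round from the labels. The groups are therefore called labelled 0 dpa and labelled 1 dpa, and every direction in batch 2 follows the labels.

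Libraries held 19427984 to 43871436 gene counts, and replicates differed by more than counting noise (chi-square per degree of freedom 14.9 to 126). Nothing in the labels says how pools were drawn apart, so p-values measure the spread between these pools. All 9 fibroblast markers were detected in the fibroblast libraries, where they summed to 50744 to 90178 CPM, against 4599 to 41992 in whole fins. The collagen gene col1a1a weighs heavily in this sum. In fibroblasts at 4 dpa it alone made up 4.83 and 6.51% of gene counts, of 7.17 and 9.21% for all 9 markers. CPM are counts scaled to the library total with TMM factors. They are not divided by gene length, so levels are compared between libraries and not between genes. No symbol of a gene on mitochondrial DNA was found among those counted, so what follows concerns the nuclear genes alone. In bulk libraries, fewer cells of a type and less RNA per cell cannot be told apart.

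Of the 93 genes, 90 passed the filter on low counts in every comparison. The complex I accessory gene ndufa13 and the assembly gene ndufaf3 had 0 counts in all libraries. The complex I core gene ndufs8b had 27 counts over 9 libraries.

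The summed level of all 93 genes differed between groups without overlap within each replicated pair. In batch 1 it was 6182 and 7099 CPM at 0 dpa and 8977 and 8653 CPM at 4 dpa. In batch 2 it was 9931, 10083 and 9962 CPM in the libraries labelled 0 dpa and 4929, 4989 and 5169 CPM in those labelled 1 dpa. In fibroblasts it was 3970 and 4035 CPM at 0 dpa, the lowest of the 18 libraries, and 10835 and 10390 CPM at 4 dpa, the highest. The fibroblast pair thus spanned a wider range than any whole-fin pair. The single whole-fin libraries of batch 3 had 5952 CPM at 0 dpa and 7256 CPM at 2 dpa without the deletion, and 4927 and 7285 CPM with it.

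The complexes did not keep the same proportions. In fibroblasts at 0 dpa, complex IV genes summed to 419 and 427 CPM and complex II genes to 519 and 524 CPM. In the whole fin of batch 3 at 0 dpa, complex IV summed to 926 CPM and complex II to 365 CPM. At 4 dpa the fibroblast libraries had 1631 to 1741 CPM for complex IV, beside 565 to 580 CPM for complex II. The sum of complex II thus moved least between the fibroblast times, as the plot of summed levels by complex shows. Within this sum sdha went from 316 and 321 CPM down to 185 and 213 CPM, while 5 of the 8 genes rose.

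**Figure D1:**
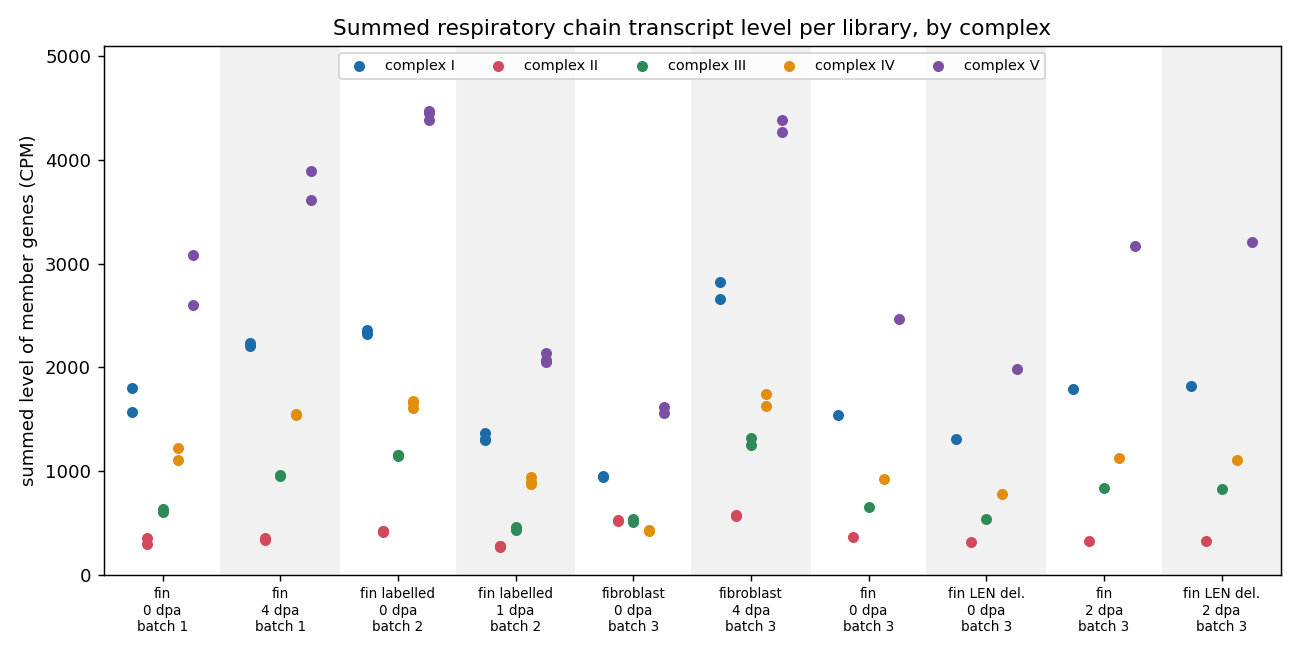
Summed level of the member genes of each complex (y axis, CPM, linear) in each of the 18 libraries, arranged by group (x axis). Each point is 1 library and each colour a complex. Complex V ranges from 1563 to 1614 CPM in fibroblasts at 0 dpa and from 4267 to 4384 CPM at 4 dpa, while complex II stays between 269 and 580 CPM in all libraries.

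Whole fins at 4 dpa were compared with uninjured fins of batch 1. By edgeR's quasi-likelihood test at an adjusted p under 0.05, 43 of the 90 genes rose and 5 fell. Among all 11912 genes tested, 32.5% rose and 33% fell. The median log2 fold change was 0.28 for the 90 genes and -0.01 for all genes. Increases were modest, with 7 genes (7.78%) rising by 2-fold or more, beside 16.9% of all genes. The count of genes that fell was 14 without replicate 1 of 0 dpa, 2 without replicate 2 of 0 dpa and 3 without replicate 1 of 4 dpa.

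Complex I, the entry point for electrons from NADH, had 22 of 40 tested genes higher and 0 lower. At an unadjusted p under 0.05, or with DESeq2, the number lower was also 0. Of the 22, 18 were among the 29 accessory subunits tested, 2 among the 7 core subunits and 2 among the assembly genes. The largest increase was that of ndufab1a, the mitochondrial acyl carrier protein, which had 27.1 and 28.3 CPM at 0 dpa and 61.5 and 66.1 CPM at 4 dpa (log2 change 1.097 with an SE of 0.12, adjusted p = 4.1e-05 by edgeR). The 4 dpa libraries were both above the 0 dpa libraries. The core gene ndufs1, which carries iron-sulfur clusters, had 138 and 146 CPM at 0 dpa and 182 and 168 CPM at 4 dpa (0.19, SE 0.12, adjusted p = 0.17). The NADH-binding subunit gene ndufv1 overlapped between the groups, with 113 and 156 CPM at 0 dpa and 136 and 134 CPM at 4 dpa. Without replicate 1 of 0 dpa it was called lower (-0.29).

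Complex II, which oxidizes succinate and is shared with the tricarboxylic acid cycle, had 0 of 8 genes called in either direction by edgeR. At an unadjusted p under 0.05 and with DESeq2 the number was also 0. Its flavoprotein gene sdha had 137 and 164 CPM at 0 dpa and 147 and 132 CPM at 4 dpa (log2 fold change -0.22, SE 0.13). Its iron-sulfur gene sdhb had 59.0 and 80.1 CPM against 84.7 and 75.6 CPM (0.09, SE 0.15). The median log2 fold change of the complex was 0.03. Without replicate 1 of 0 dpa, sdha was called lower (-0.31), and without replicate 2 of 0 dpa, sdhb was called higher (0.34).

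Complex III, which passes electrons to cytochrome c, had 7 of 9 genes higher and 0 lower, with a median of 0.48. No gene was lower at an unadjusted p under 0.05 or with DESeq2 (0 and 0). The hinge subunit gene uqcrh had 41.1 and 42.1 CPM at 0 dpa and 84.4 and 101 CPM at 4 dpa (log2 change 1.06 with an SE of 0.13, adjusted p = 9.44e-05 by edgeR). The 2 genes of the catalytic redox subunits rose less. The Rieske protein gene uqcrfs1 changed by 0.48 (SE 0.11) and the cytochrome c1 gene cyc1 by 0.46 (SE 0.12), and neither was called without replicate 1 of 4 dpa, at 0.45 and 0.40. The 2 copies of the core protein 2 gene parted: uqcrc2b rose by 0.71, and uqcrc2a stood at -0.10 and was not called.

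Complex IV reduces oxygen to water, and its 17 nuclear genes are named for regulatory and structural subunits around the mitochondrially encoded core. Of these, 7 rose and 3 fell. The largest increase of all members was that of cox7a2a, the isoform found in most tissues, with 22.4 and 21.8 CPM at 0 dpa and 68.5 and 79.1 CPM at 4 dpa (log2 change 1.63 with an SE of 0.13, adjusted p = 6.17e-06 by edgeR). Both 4 dpa libraries lay well above the 0 dpa pair. The isoform genes cox6a2, cox7a1 and cox8b, which in mammals belong to heart and skeletal muscle, fell. Their levels were low. For cox6a2 they were 1.01 and 2.27 CPM at 0 dpa and 0.283 and 0.404 CPM at 4 dpa (-2.36, SE 0.46, adjusted p = 0.00162).

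For cox8b the 0 dpa libraries had 1.69 and 3.95 CPM and the 4 dpa libraries 0.932 and 1.02 CPM (log2 change -1.65 with an SE of 0.40, adjusted p = 0.00599 by edgeR). For cox7a1 they had 2.01 and 2.50 CPM against 1.102 and 1.401 CPM (-0.96, SE 0.28, adjusted p = 0.0127). The groups did not overlap for any of these genes, but the cox8b and cox7a1 calls were lost without replicate 2 of 0 dpa (-0.89 and -0.78), and that of cox7a1 also without replicate 1 of 4 dpa (-0.78). The partner genes moved the other way for cox6a1 (0.95, SE 0.14) and, at the edge of the threshold, for cox8a (0.32, SE 0.13, adjusted p = 0.0493). The call of cox8a was lost without any of replicate 1 of 0 dpa, replicate 1 of 4 dpa and replicate 2 of 4 dpa (0.27, 0.23 and 0.41), and with DESeq2 cox7a1 and cox8a were not called (-0.93 and 0.34).

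Muscle markers were measured beside these isoforms. Of 6 markers, 3 were tested in this comparison, of which 1 rose and 1 fell. They summed to 41.2 and 64.0 CPM at 0 dpa and to between 29.7 and 30.7 CPM at 4 dpa. Most of this was myoglobin (mb, 39.1 to 58.7 and 21.0 to 22.4 CPM). The muscle myosin light chain gene mylpfa had 0 counts at 0 dpa. The part of muscle in the isoform result was not tested.

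Complex V had 7 of 16 genes higher and 2 lower, with a median of 0.28. Of the genes for its rotor ring of c subunits, atp5g1 had 77.7 and 64.6 CPM at 0 dpa and 206 and 184 CPM at 4 dpa (log2 change 1.35 with an SE of 0.13, adjusted p = 2.04e-05 by edgeR). The gene atp5g3a also rose, by 1.11 (SE 0.11). The gene atp5g3b did not pass the test, with 322 and 456 CPM at 0 dpa and 331 and 324 CPM at 4 dpa. Near-identical genes may share reads, so how counts are split between these 3 is uncertain. The catalytic F1 gene atp5a1 (alpha subunit) rose by 0.62 (SE 0.16), a call lost without replicate 1 of 4 dpa (0.56). Its partner atp5b (beta subunit) stood at 0.33 (SE 0.18) and was called only without replicate 2 of 0 dpa (0.50) among the fits that left out 1 library.

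Both decreases in complex V were in peripheral genes. The coupling factor B gene atp5s had 12.3 and 17.1 CPM at 0 dpa and 7.99 and 7.17 CPM at 4 dpa (log2 change -1.07 with an SE of 0.18, adjusted p = 0.000711 by edgeR). The stalk gene atp5j (coupling factor 6) fell by 0.32 on the log2 scale (SE 0.12), a call lost in 3 of the 4 fits that left out 1 library each: those without replicate 2 of 0 dpa, replicate 1 of 4 dpa and replicate 2 of 4 dpa (-0.20, -0.29 and -0.34). With DESeq2 it was not called either (-0.30).

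The scaling bears on the size of this shift. With library size alone in place of TMM, the median of all genes moved to 0.44 and that of the members to 0.73, with 68 members higher and 3 lower; 72.7% of all calls were then increases, against 49.7% with TMM. Relative to all genes the members' median was close under both scalings. Whole fins at 4 dpa also held more fibroblast marker RNA (36154 to 41992 CPM against 4599 to 4702 CPM, 8 of 9 markers higher) and less epidermal marker RNA (34469 to 38672 CPM against 106536 to 130259 CPM, 7 of 7 markers lower). Osteoblast markers summed to 399 to 501 CPM at 0 dpa and 13680 to 15587 CPM at 4 dpa, with 3 of 4 higher and 1 lower (bglap). Endothelial markers rose from between 35.1 and 42.4 CPM to between 110 and 128 CPM (4 of 4 higher). Leukocyte markers stood at 2755 to 3787 CPM at 0 dpa and 1002 to 1011 CPM at 4 dpa, with 1 of 6 higher and 3 lower. Nerve and glial markers went from 161 to 178 CPM down to 67.6 to 72.8 CPM (4 of 4 lower), and pigment cell markers from 167 to 174 CPM to 72.2 to 97.2 CPM (4 of 5 lower). Dissociation stress genes summed to 1140 to 1328 CPM and 249 to 425 CPM, with 4 of 5 lower. The part of these lists in the members' changes was not tested.

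**Figure D2:**
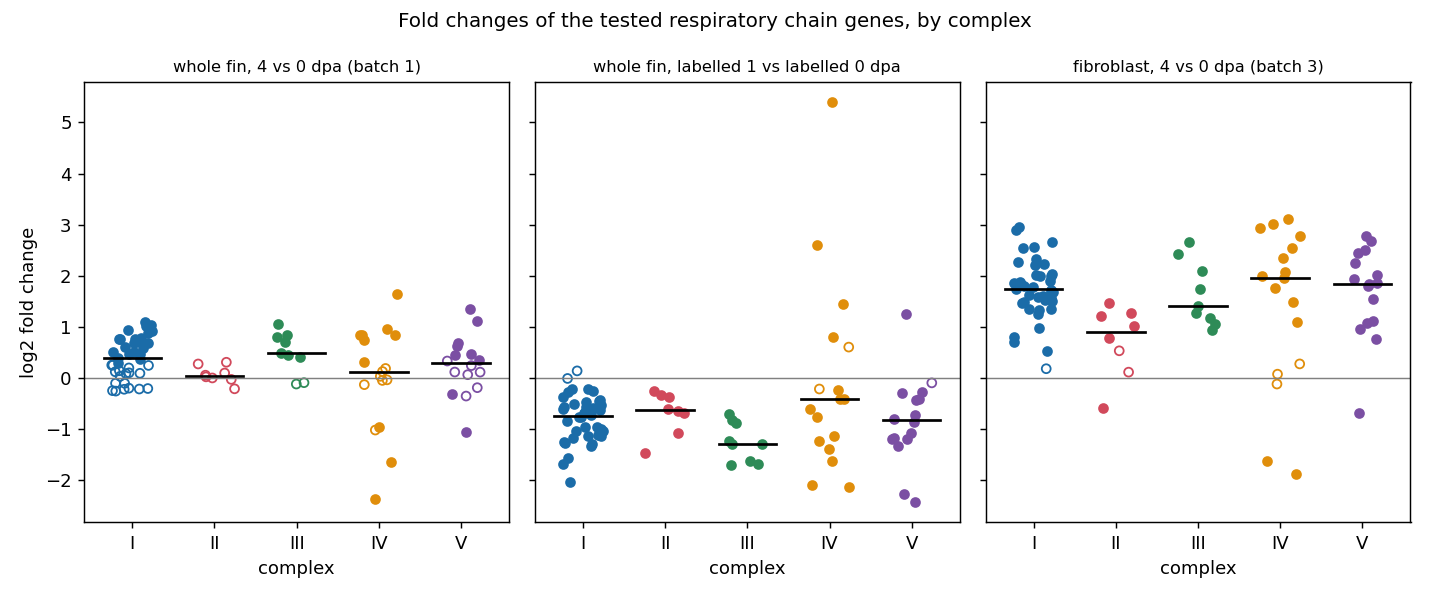
Log2 fold change (y axis) of each of the 90 tested genes by complex (x axis) in the 3 replicated comparisons, which share the y axis. Filled points passed edgeR's test at an adjusted p under 0.05, open points did not, black lines are medians, and the sideways spread of points carries no value. Complex II has no filled point in whole fins at 4 dpa, and the highest point in the middle panel is cox4i2 at 5.39.

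In batch 2, libraries labelled 1 dpa were compared with those labelled 0 dpa. By edgeR's test 80 of 90 genes were lower in the libraries labelled 1 dpa and 5 higher, beside 39.9% lower and 42% higher of 11851 genes tested. The members' median log2 fold change was -0.77 and that of all genes 0.06. Every tested gene of complex II (8) and complex III (9) was lower, with medians of -0.63 and -1.29. So were 38 of 40 genes of complex I, 11 of 17 of complex IV and 14 of 16 of complex V. In complexes I to III 0 genes were higher, also at an unadjusted p under 0.05 and with DESeq2 (0 and 0). Of the members 38.9% were lower by 2-fold or more, beside 18.6% of all genes.

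Markers of other cell types differed in batch 2 as well. Leukocyte markers summed to 436 to 612 CPM in libraries labelled 0 dpa and 4619 to 5260 CPM in those labelled 1 dpa (5 of 6 higher in the latter). Osteoblast markers stood at 14.7 to 22.5 CPM and 263 to 310 CPM (4 of 4 higher), pigment cell markers at 42.7 to 73.7 CPM and 178 to 214 CPM (4 of 5 higher), and nerve and glial markers at 87.3 to 91.8 CPM and 189 to 196 CPM (4 of 4 higher). The dissociation stress genes summed to 250 to 563 CPM and 2258 to 2762 CPM, with 3 of 5 higher and 2 lower. Fibroblast markers overlapped in sum (5900 to 6620 CPM and 5905 to 6944 CPM, 3 of 9 higher and 3 lower), and epidermal markers stood at 125912 to 135688 CPM and 101267 to 114218 CPM (2 of 7 higher and 3 lower). Their part in the members' difference was not tested.

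The largest decreases were in the c-ring genes. For atp5g1 the libraries labelled 0 dpa had 190, 192 and 188 CPM and those labelled 1 dpa 35.1, 31.9 and 33.9 CPM (log2 change -2.44 with an SE of 0.05, adjusted p = 2.05e-09 by edgeR). For atp5g3a they had 208, 214 and 207 CPM against 40.04, 43.0 and 41.1 CPM (-2.28, SE 0.05). The groups lay far apart for both genes, whereas atp5g3b differed by only -0.10 (SE 0.05, adjusted p = 0.0752). Next came cox7a2a (-2.14), cox5ab (-2.11) and ndufab1a (-2.05). All of these but cox5ab were also among the 5 largest increases in fins at 4 dpa.

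The gene cox4i2 moved against most members, with the largest difference of the 5 that were higher in libraries labelled 1 dpa. It encodes the alternative form of subunit 4 of complex IV, which in mammals is known for expression in lung and under low oxygen. Libraries labelled 0 dpa had 0.917, 0.834 and 0.498 CPM and those labelled 1 dpa 28.5, 31.9 and 30.1 CPM (log2 change 5.39 with an SE of 0.15, adjusted p = 6.18e-09 by edgeR). No overlap was near. The main isoform gene cox4i1 differed by -0.24 (SE 0.05), with 230, 231 and 224 CPM against 180, 184 and 191 CPM.

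The other genes higher in the libraries labelled 1 dpa were atp5s and the muscle-type isoforms. The gene atp5s had 5.44, 6.05 and 4.96 CPM in libraries labelled 0 dpa and 12.2, 12.4 and 12.9 CPM in those labelled 1 dpa (log2 change 1.25 with an SE of 0.10, adjusted p = 2.59e-06 by edgeR). For cox6a2 the difference was 2.59 (SE 0.37), for cox8b 1.44 (SE 0.21) and for cox7a1 0.80 (SE 0.31, adjusted p = 0.0436). The values of cox7a1 overlapped between groups (1.30, 2.71 and 2.70 CPM against 3.92, 2.68 and 4.61 CPM). Its call was lost without replicate 1 or 2 labelled 0 dpa (0.49 and 0.96) and without replicate 1 or 3 labelled 1 dpa (0.77 and 0.59). The 6 muscle markers summed to 14.6 to 16.5 CPM and 48.5 to 58.4 CPM, again mostly mb (9.41 to 10.4 and 47.3 to 57.3 CPM), while mylpfa and myhz2 stayed at or below 0.178 CPM in each of these libraries. The part of muscle was not tested.

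These 4 genes (cox6a2, cox7a1, cox8b and atp5s) are 80% of the 5 that fell in batch 1 and 80% of the 5 that were higher in batch 2. Of all genes that fell in batch 1 and were tested in batch 2, 78.1% were higher there. The comparisons share no library. Of the 43 genes that rose in fins at 4 dpa, 41 (95.3%) were lower in the libraries labelled 1 dpa, which is 51.2% of the 80 lower there. This share is near the 88.9% of all tested members that were lower there, and over all genes 75.1% of those that rose in fins at 4 dpa were lower in the libraries labelled 1 dpa. The exceptions were cox6b1 and ndufa4. Members, like all genes, thus mostly moved in opposite directions in the 2 batches when both are read by their labels. If the names of the deposited data hold for batch 2 instead, the directions would be the same. The level of tph1b, the gene whose promoter drives the fibroblast transgenes, was 105 to 110 CPM in libraries labelled 0 dpa and 1.79 to 2.41 CPM in those labelled 1 dpa. In batch 1 it was 1.68 to 2.01 CPM at 0 dpa and 42.6 to 49.7 CPM at 4 dpa. The leptin gene lepb had 31.4 to 44.5 CPM in libraries labelled 0 dpa and 2 counts over the 3 libraries labelled 1 dpa, the lowest fitted change of all 11851 genes. In batch 1 lepb stood at 0.182 to 0.423 CPM at 0 dpa and 27.1 to 38.0 CPM at 4 dpa, and in batch 3 without the deletion at 1 count at 0 dpa and 111 CPM at 2 dpa. In fibroblasts lepb was high at both times, with 176 to 267 CPM at 0 dpa and 218 to 240 CPM at 4 dpa. It was not called there (log2 change 0.15, SE 0.21), so its level did not part uninjured from injured in every tissue. For both genes the libraries labelled 0 dpa were thus nearer to the 4 dpa fins of batch 1, and those labelled 1 dpa to its 0 dpa fins. The other fibroblast markers did not all go with tph1b. In batch 1, 8 of 9 rose at 4 dpa, and their sum went from 4599 to 4702 CPM up to 36154 to 41992 CPM. In libraries labelled 1 dpa 3 of 9 were higher and 3 lower, with lum at 3.42 and tph1b at -5.59. The fibroblast sum overlapped between the groups of batch 2 (5900 to 6620 CPM and 5905 to 6944 CPM). Marker sums of nerve and glia, pigment cells, leukocytes and muscle were lower at 4 dpa in batch 1 and in libraries labelled 0 dpa. The endothelial sum was higher in both. The osteoblast sum was higher at 4 dpa and lower in libraries labelled 0 dpa, and the epidermal sum went the reverse way. Of the osteoblast markers, bglap fell at 4 dpa (-1.22) and was higher in libraries labelled 1 dpa (4.22). Of the epidermal markers, krt5 made up 9.20 and 9.83% of gene counts at 0 dpa in batch 1 and 3.87 and 3.53% at 4 dpa. In batch 2 it made up 6.54 to 7.13% in libraries labelled 0 dpa and 9.41 to 10.3% in those labelled 1 dpa. In batch 2 krt5 thus went against the epidermal sum, while krt4 was lower in libraries labelled 1 dpa (-2.91). By the labels the batches also differ in the injured stage, 4 or 1 dpa. The samples were kept under their labels.

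In fibroblasts, 4 dpa was compared with 0 dpa. By edgeR's test 80 of 90 genes rose and 4 fell, beside 27.8% that rose and 26.2% that fell among 12011 genes tested. The median log2 fold change was 1.69 for the members and 0.00 for all genes, and 72 genes (80.0%) rose by 2-fold or more and 27 (30.0%) by 4-fold or more, beside 16.9% and 5.49% of all genes. All 43 genes that rose in fins at 4 dpa rose in fibroblasts as well, which is 53.8% of the 80. Of all tested members 88.9% rose in fibroblasts, and over all genes 55.5% of those that rose in fins at 4 dpa rose in fibroblasts. Without either 4 dpa replicate the count of genes that fell was 0.

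In complex I 39 of 40 genes rose and 0 fell (0 at an unadjusted p under 0.05 and 0 with DESeq2), with a median of 1.73. The accessory gene ndufs5 had 8.15 and 8.13 CPM at 0 dpa and 59.7 and 57.8 CPM at 4 dpa (log2 change 2.95 with an SE of 0.16, adjusted p = 2.1e-06 by edgeR). For ndufa2, another accessory gene, the values were 3.51 and 2.62 CPM at 0 dpa and 23.99 and 18.5 CPM at 4 dpa (2.89, SE 0.25). The exception was the core gene ndufv1, with 92.1 and 87.0 CPM at 0 dpa and 94.2 and 95.3 CPM at 4 dpa (0.18, SE 0.14, adjusted p = 0.298). The core gene ndufs1 rose by 0.98 (SE 0.14).

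Complex II was the least shifted again, with 5 of 8 genes higher, 1 lower and a median of 0.89. The gene sdha had 316 and 321 CPM at 0 dpa and 185 and 213 CPM at 4 dpa (log2 change -0.58 with an SE of 0.14, adjusted p = 0.00721 by edgeR), while its partner sdhb rose, from 125 and 122 CPM to 195 and 199 CPM (0.77, SE 0.14, adjusted p = 0.00116). The groups did not overlap for either gene. The call of sdha was lost without either 4 dpa replicate (-0.50 and -0.65) and with library-size scaling (-0.27). Levels of sdha in fibroblasts at 0 dpa were above the 130 to 178 CPM of all whole-fin libraries. The membrane anchor genes sdhc and sdhdb rose by 1.20 and 1.46, and sdhda, at 2.77 to 3.62 CPM, was not called.

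All 9 genes of complex III rose, with a median of 1.40 (0 fell, also at an unadjusted p under 0.05 and with DESeq2). The gene uqcrh had 27.2 and 29.6 CPM at 0 dpa and 119 and 107 CPM at 4 dpa (log2 fold change 2.09, SE 0.15). The gene uqcrfs1 rose by 1.06 (SE 0.14) and cyc1 by 0.93 (SE 0.14).

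In complex IV 12 of 17 genes rose and 2 fell, with the highest median of the complexes, 1.96. The gene cox7a2a led the members here too, with 19.1 and 17.3 CPM at 0 dpa and 156 and 136 CPM at 4 dpa (log2 change 3.10 with an SE of 0.16, adjusted p = 1.67e-06 by edgeR). Next was cox5ab, a copy of the subunit 5a gene, with 16.2 and 16.1 CPM against 125 and 120 CPM (3.02, SE 0.15). The small subunit gene cox7b had 21.7 and 24.3 CPM against 171 and 160 CPM (2.94, SE 0.16). The gene cox4i1 rose by 1.96 (SE 0.15), from 39.1 and 40.2 CPM to 153 and 136 CPM.

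The gene cox4i2 did not pass the test in fibroblasts, with 44.6 and 50.9 CPM at 0 dpa and 47.8 and 46.0 CPM at 4 dpa (log2 change 0.07 with an SE of 0.15, adjusted p = 0.717 by edgeR). These levels were above those of every whole-fin library, of which the highest had 31.9 CPM. The genes that fell in complex IV were cox6a2 (1.36 and 1.62 CPM against 0.618 and 0.275 CPM, log2 change -1.63) and cox5b2 (0.974 and 1.59 CPM against 0.247 and 0.400 CPM, log2 change -1.88). Both had under 2 CPM. The call of cox6a2 was lost without either 4 dpa replicate (-2.35 and -1.13), with library-size scaling (-1.30) and with DESeq2 (-1.64).

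In complex V 15 of 16 genes rose, with a median of 1.84. The c-ring genes atp5g1, atp5g3a and atp5g3b rose by 2.77 (SE 0.16), 1.12 (SE 0.14) and 2.02 (SE 0.17), and atp5a1 and atp5b by 1.07 (SE 0.15) and 0.75 (SE 0.16). The gene atp5s was the only gene of complex V that fell, from 9.21 and 7.91 CPM to 5.22 and 4.72 CPM (log2 change -0.69 with an SE of 0.24, adjusted p = 0.0349 by edgeR). Its call was lost without either 4 dpa replicate (-0.78 and -0.58) and with library-size scaling (-0.37).

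Stress genes moved with the fibroblast comparison. The 5 dissociation stress genes (fosab, jun, hsp70.1, hsp70l and egr1) summed to 92761 and 127407 CPM at 0 dpa and to 16452 and 18600 CPM at 4 dpa, with 5 of 5 lower and none at 0 counts. No whole-fin library exceeded 2762 CPM. Epidermal markers also differed, at 16689 and 35898 CPM against 4804 and 5131 CPM, with 7 of 7 lower. Nerve and glial markers stood at 91.8 to 96.4 CPM and 39.7 to 45.5 CPM (4 of 4 lower), whereas the fibroblast marker sum was 50744 to 51867 CPM and 64743 to 90178 CPM (3 of 9 higher and 1 lower). Their part in the members' rise was not tested, and the stress level and the time cannot be told apart, since all 0 dpa fibroblast libraries were above all 4 dpa libraries. Without 1 library at a time, 76 to 81 members rose. With library size alone, the median of all genes was 0.32 and that of the members 2.01, and 67.7% of all calls were increases, against 51.5% with TMM.

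The response at 4 dpa was then compared between tissues, as the fibroblast change minus the whole-fin change in 1 fit of the 4 groups. By edgeR's test 74 of 90 genes rose more in fibroblasts and 0 less, beside 18.8% more and 17.4% less among 12442 genes tested. At an unadjusted p under 0.05 and with DESeq2 the number with a smaller response was also 0. The core gene sdha stood at -0.33 (SE 0.20) and was not called in the main fit. Over all fits run it ranged from -0.65 to -0.20, and at least 1 of the alternatives called its response smaller. The median difference was 1.47 on the log2 scale for the members and 0.07 for all genes. Tissue, batch and pool size (75 or 15 fish) cannot be told apart in this contrast. With library size alone the members' median was 1.30 and that of all genes -0.11, and 38.9% of all calls were positive, against 52.0% with TMM.

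The largest differences were in genes that did not pass the test in whole fins or rose little there. The oligomycin sensitivity gene atp5o of the ATP synthase stalk had 223 and 274 CPM in fins at 0 dpa and 241 and 227 CPM at 4 dpa, and 94.8 and 101 CPM in fibroblasts at 0 dpa and 452 and 422 CPM at 4 dpa. The difference was 2.49 (SE 0.22, adjusted p = 2.77e-05 by edgeR). For ndufa2 it was 2.46 (SE 0.30), for atp5g3b 2.42 (SE 0.27) and for the membrane gene atp5l 2.41 (SE 0.21). The fibroblast libraries of 0 dpa were below those of whole fins for all 4 genes.

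Of the 43 genes that rose in whole fins, 5 showed no called difference: cyc1, atp5a1, atp5g3a, ndufa4 and ndufaf7. For atp5g3a the fibroblast change minus the fin change was 0.05 (SE 0.17). Differences were smaller for some genes of complexes II and III, at 0.71 (SE 0.22) for sdhb, 0.62 (SE 0.18) for uqcrfs1 and 0.52 (SE 0.18) for uqcrc1. The call of uqcrc1 was lost in each of the 8 fits that left out 1 library, at 0.26 to 0.55, that of sdhb in 7 of 8 (0.29 to 0.78) and that of uqcrfs1 in 6 of 8 (0.41 to 0.64).

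**Figure D3:**
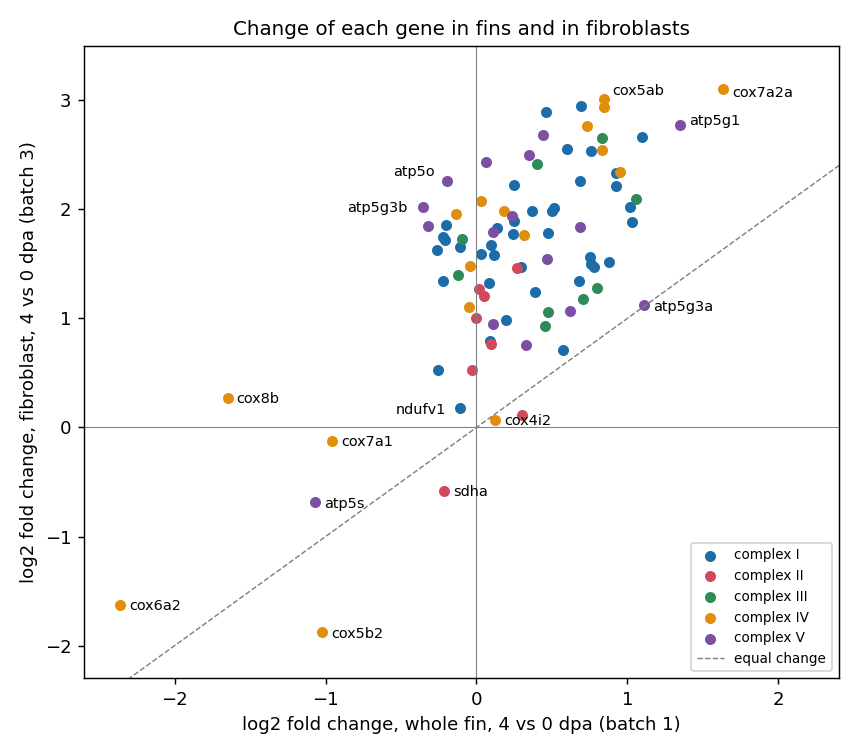
Log2 fold change of each of the 90 tested genes at 4 against 0 dpa in whole fins (x axis, batch 1) and in fibroblasts (y axis, batch 3), coloured by complex; the dashed line marks equal change. Most points lie above the line, cox7a2a is at 1.63 and 3.10, atp5g3a is near the line at 1.11 and 1.12, and cox6a2, atp5s, cox5b2, cox7a1 and sdha lie below 0 on both axes.

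Isoform pairs were compared as ratios of counts, which do not depend on the scaling of a library. As cox4i1 rose in fibroblasts and cox4i2 was not called, their ratio shifted. The ratio of cox4i2 to cox4i1 was 1.14 and 1.26 in fibroblasts at 0 dpa and 0.313 and 0.338 at 4 dpa. In whole fins of batch 1 it was 0.0726 and 0.0912 at 0 dpa and 0.0968 and 0.0996 at 4 dpa. In batch 2 it was 0.00223 to 0.00398 in libraries labelled 0 dpa and 0.158 to 0.174 in those labelled 1 dpa. Fibroblasts had the highest ratios, without overlap with any whole-fin library, and the libraries labelled 0 dpa the lowest. The single libraries of batch 3 had 0.0975 and 0.103 (with the deletion) at 0 dpa and 0.0207 and 0.0236 at 2 dpa.

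The copies of the subunit 5a gene, cox5ab and cox5aa, shifted towards cox5ab at 4 dpa in both tissues. In whole fins cox5ab had 42.0 and 42.3 CPM at 0 dpa and 82.3 and 80.6 CPM at 4 dpa (log2 change 0.84 with an SE of 0.11, adjusted p = 0.000132 by edgeR), while cox5aa stood at -0.04 (SE 0.12). The ratio of their counts was 0.313 and 0.366 at 0 dpa and 0.618 and 0.627 at 4 dpa. In fibroblasts it was 0.285 and 0.311 at 0 dpa and 0.848 and 0.873 at 4 dpa. The 2 dpa libraries had 0.666 and 0.642 (with the deletion), against 0.383 and 0.326 at 0 dpa. The libraries labelled 0 dpa had 0.729 to 0.806 and those labelled 1 dpa 0.266 to 0.280.

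The subunit 7a family shifted towards cox7a2a at 4 dpa. Its member cox7a3 has cox7a2l as its current symbol, a gene whose mammalian product joins complexes III and IV into supercomplexes. The ratio of cox7a3 to cox7a2a was 1.36 and 1.86 in fins at 0 dpa and 0.457 and 0.549 at 4 dpa. It was 1.07 and 1.14 in fibroblasts at 0 dpa and 0.275 and 0.278 at 4 dpa, and 0.853 to 0.938 in libraries labelled 0 dpa against 2.86 to 3.07 in those labelled 1 dpa. In fibroblasts cox7a3 itself rose by 1.102, less than cox7a2a. Among c-ring genes the ratio of atp5g1 to atp5g3b was 0.142 and 0.241 in fins at 0 dpa and 0.568 and 0.623 at 4 dpa, and 0.429 to 0.628 in fibroblasts at 0 dpa and 0.851 to 0.897 at 4 dpa. The ratio of atp5g3a to atp5g3b was also higher at 4 dpa in fins (0.163 and 0.233 against 0.515 and 0.546) but lower at 4 dpa in fibroblasts (1.001 and 1.31 against 0.586 and 0.639). In batch 2 it was 0.772 to 0.779 in libraries labelled 0 dpa and 0.169 to 0.175 in those labelled 1 dpa. For the copies of the core protein 2 gene, the ratio of uqcrc2b to uqcrc2a likewise was higher at 4 dpa in fins (0.778 and 0.966 against 1.496 and 1.51) and lower in fibroblasts (2.55 and 2.61 against 1.68 and 1.84). The differences in these ratios were not tested as such.

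**Figure D4:**
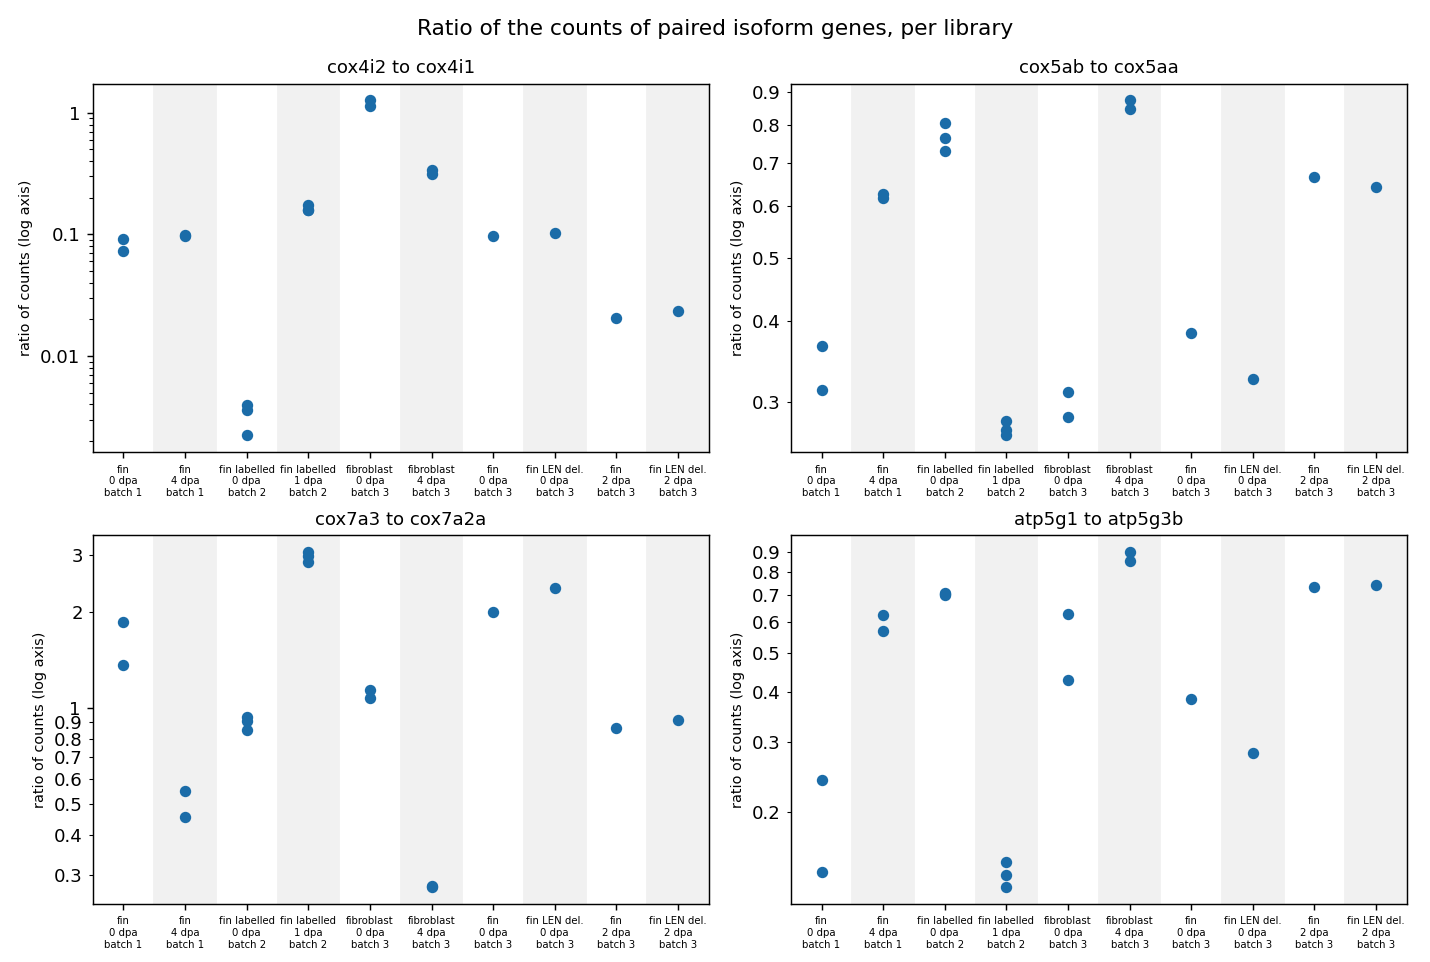
Ratio of the counts of 2 isoform genes (y axis, log scale, 1 panel a pair) in each of the 18 libraries, arranged by group (x axis); each point is 1 library. The ratio of cox4i2 to cox4i1 is highest, at 1.26, in fibroblasts at 0 dpa and lowest, at 0.00223, in a library labelled 0 dpa, and the ratio of cox5ab to cox5aa is 0.618 or more in the libraries at 2 and 4 dpa and in those labelled 0 dpa, and 0.383 or less in the others.

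The NDUFA4 family is counted with complex I by name, although its mammalian product is now known as a subunit of complex IV. The gene ndufa4l (current symbol ndufa4a) had 49.7 to 189 CPM in the 18 libraries. It rose by 1.90 in fibroblasts (SE 0.15, adjusted p = 7.78e-06 by edgeR), from 49.7 and 51.6 CPM to 182 and 171 CPM, and stood at 0.25 (SE 0.12) in whole fins at 4 dpa. Its copy ndufa4 (current symbol ndufa4b) stayed between 0.623 and 3.07 CPM. That copy rose in whole fins (0.88, SE 0.30) and fibroblasts (1.52, SE 0.44). The call in whole fins was lost without replicate 1 or 2 of 0 dpa or replicate 1 of 4 dpa (0.83, 0.98 and 0.72) and with DESeq2 (0.91), and that in fibroblasts without either 4 dpa replicate (1.49 and 1.57).

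The single whole-fin libraries of batch 3 allow no test, and differences are described by a fold past 1.5 in the same direction without and with the LEN deletion. At 2 against 0 dpa 13 of 90 members were higher and 4 lower by this measure, beside 19% higher and 21.3% lower of 11783 genes. The members' median log2 ratio was 0.26 without the deletion and 0.48 with it, beside 0.01 and 0.00 for all genes. Of the members 71 (78.9%) were above 0 in both genotypes, beside 44.2% of all genes. For cox7a2a the libraries without the deletion had 22.8 CPM at 0 dpa and 49.6 CPM at 2 dpa, and those with it 16.0 and 48.7 CPM (log2 ratios 1.11 and 1.57). The 95% counting intervals were 0.98 to 1.24 and 1.43 to 1.72, and cover counting error only.

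Of the 13 higher genes, 12 (92.3%) also rose in batch 1 at 4 dpa, which is 27.9% of the 43. Over all genes the first share was 84.3%. The exception was sdhda, with 33 and 61 counts without the deletion and 11 and 59 with it. The 4 lower genes were cox4i2, cox6a2, cox8b and atp5s. All of these were higher in the libraries labelled 1 dpa, as were 88.3% of all genes lower at 2 dpa by this measure. For cox8b the counts were low, at 51 and 39 without the deletion and 62 and 36 with it. Its log2 ratio without the deletion was -0.59, with a counting interval of -1.26 to 0.01. For cox4i2 the libraries had 17.4 CPM at 0 dpa and 3.99 CPM at 2 dpa without the deletion, and 16.5 and 4.54 CPM with it (log2 ratios -2.12 and -1.88). The intervals were -2.42 to -1.86 and -2.16 to -1.63. At 0 dpa the library with the deletion was lower for the members by a median log2 ratio of -0.25, beside -0.02 for all genes. Other lists were also lower there, such as mitochondrial protection genes (-0.27), epidermal markers (-0.24) and mitochondrial ribosomal genes (-0.18). Markers of leukocytes (0.72), pigment cells (0.27), nerve and glia (0.10) and erythrocytes (0.10) were higher. At 2 dpa the members' median was -0.01. With 1 library per genotype, the deletion and the pool cannot be told apart.

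Genes that serve the chain were described from lists, as counts without a test of the list. They are read against the shares of all genes given above: 32.5% higher and 33% lower in fins at 4 dpa, 42% and 39.9% in libraries labelled 1 dpa, and 27.8% and 26.2% in fibroblasts. Mitochondrial ribosomal protein genes, whose products translate the mitochondrially encoded subunits, numbered 41 higher and 2 lower of 68 in fins at 4 dpa (median 0.43), 0 higher and 66 lower in libraries labelled 1 dpa (-1.08), and 65 higher and 0 lower in fibroblasts (1.32). Both counts of 0 are from edgeR, and were 0 at an unadjusted p under 0.05 and 0 with DESeq2 as well. The ribosomal gene mrpl12 had 18.2 ± 2.4 CPM at 0 dpa and 41.1 ± 0.393 CPM at 4 dpa in fins (SD, n = 2; log2 change 1.07 with an SE of 0.13, adjusted p = 9.38e-05 by edgeR).

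Cytosolic ribosomal genes, a list that by its naming also holds a few ribosomal protein kinases, went apart from the members in whole fins, with 1 higher and 78 lower of 86 at 4 dpa (median -1.19). In fibroblasts 60 were higher and 5 lower (0.68). Proteasome genes numbered 37 higher and 5 lower of 49 in fins (1.03) and 42 higher and 1 lower in fibroblasts (1.46). By its naming the proteasome list also holds psmc3ip, which encodes no proteasome subunit. In the libraries labelled 1 dpa 65 cytosolic ribosomal genes were higher and 8 lower (0.30), and 6 proteasome genes were higher and 40 lower (-1.65).

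The tricarboxylic acid cycle feeds electrons to the chain. Its list also holds genes of pyruvate dehydrogenase (pdha1a, pdha1b, pdhb and dlat) and pyruvate carboxylase (pcxa and pcxb). In whole fins at 4 dpa the list was mixed, with 2 of 17 genes higher and 5 lower. The count lower there lies near the share of all genes. In fibroblasts 10 of 16 were higher and 2 lower. In libraries labelled 1 dpa 5 of 17 were higher and 11 lower. In fibroblasts the ligase gene suclg1 rose by 2.00 (SE 0.15) and dld fell by 4.22 on the log2 scale (SE 0.27), from 28.7 ± 1.16 to 1.44 ± 0.572 CPM (SD, n = 2). In zebrafish the symbol dld belongs to the Notch ligand gene deltaD, so this decrease should not be read as that of a cycle gene. The list counts above include dld, which also had the highest log2 change of the list in libraries labelled 1 dpa (3.95).

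Regulators of mitochondrial biogenesis numbered 2 of 12 higher and 4 lower in fins at 4 dpa, 2 of 13 higher and 4 lower in fibroblasts, and 4 of 12 in each direction in libraries labelled 1 dpa. With so few genes, the counts of those lower lie near the shares of all genes and give no result about the list. Those that rose were tfam and ssbp1, whose products package mitochondrial DNA and bind its single strands. In fins tfam had 12.6 ± 1.6 CPM at 0 dpa and 25.1 ± 0.236 CPM at 4 dpa (SD, n = 2; log2 change 0.89 with an SE of 0.14, adjusted p = 0.000406 by edgeR), and in fibroblasts it rose by 1.46 (SE 0.21). For ssbp1 the changes were 0.68 (SE 0.15) and 1.59 (SE 0.17). The gene of the methyltransferase and transcription factor tfb2m fell in both, by 1.23 and 0.88 on the log2 scale. The transcription factor gene nrf1 was called in neither (0.04, SE 0.12, and -0.15, SE 0.14).

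Assembly factors and carriers outside the naming rule numbered 12 higher and 5 lower of 38 in fins at 4 dpa. The count higher there lies near the share of all genes and is no result about the list. In fibroblasts 20 were higher and 3 lower, and in libraries labelled 1 dpa 7 were higher and 28 lower. The cytochrome c gene cycsb rose in fins by 1.59 (SE 0.13), from 70.9 ± 4.75 to 229 ± 20.2 CPM (SD, n = 2; adjusted p = 6.88e-06 by edgeR). In fibroblasts cycsb had 628 ± 83.2 CPM at 0 dpa and 557 ± 30.3 CPM at 4 dpa and was not called. The difference between the tissues was -1.63 (SE 0.22, adjusted p = 0.000283), opposite in sign to the median of the members. The copper chaperone gene cox17 fell in fins by 1.23 on the log2 scale (SE 0.13).

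Hypoxia response genes are given beside cox4i2. In libraries labelled 1 dpa 7 of 17 were higher and 8 lower, with bnip3, a mitophagy receptor gene, higher by 4.13 (SE 0.09) and the glycolytic genes ldha and pgk1 lower (-1.70 and -1.27). In fins at 4 dpa 4 were higher and 10 lower, and in fibroblasts 3 were higher and 7 lower. Genes of mitochondrial protection numbered 6 higher and 2 lower of 14 in fins at 4 dpa, 4 and 8 in libraries labelled 1 dpa, and 4 and 4 in fibroblasts. The counts of hypoxia genes in libraries labelled 1 dpa and of mitochondrial protection genes in fibroblasts lie near the shares of all genes and are no result about these lists. The chaperone gene hspd1 rose in fins by 1.59 (SE 0.16) and fell in fibroblasts by 0.49 on the log2 scale (SE 0.16), beside the heat shock genes described above.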

How the data were processed

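RNA of 18 libraries was analysed. Per the file headers, the authors deposited 1 read count per gene and library, made with htseq-count. The submitters' processing notes name build danRer10, HTSeq 1.6.1, TopHat2 2.1.1 and Trim Galore 0.4.1 and 0.6.4 among the tools. For annotation and strand setting the sources used here give nothing, so overlapping and near-identical genes are uncertain. Reads on no gene (26.5 to 39.0%) and ambiguous reads stayed out of library sizes and tests. Of the 93 symbols 74 are current and 19 older ones in a RefSeq gene table of another assembly, used for names only.

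Counts were tested with edgeR 4.0.16 in R 4.3.3 (quasi-likelihood F test, robust, TMM, its expression filter, two-sided, Benjamini-Hochberg over all genes tested, called at an adjusted p under 0.05), on each comparison's own libraries. CPM use TMM factors of all 18 libraries. The fits were tested on simulated data in which few genes changed, equally up and down, with an equal spread for all genes. Far more genes were called in the real comparisons, so the simulation does not bear on the scaling there. DESeq2 1.42.0, other scalings, no filter, a fit of all replicated groups, a replicate block and leaving out each library were alternatives. Single libraries used a prior count of 2 and genes with at least 40 counts over 4 libraries, with exact conditional 95% intervals.

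Genes named were, per comparison, the 5 largest called changes each way (4 for the difference of responses) with a mean of at least 5 CPM, preset core subunits and isoforms, and up to 3 genes of smallest p per other list; others were chosen after their values were seen. Members and lists were chosen with earlier results of these data known. Deviations of same-numbered replicates had correlations of -0.16 to 0.12. In fins at 4 dpa and in fibroblasts each replicate number gave the same value (0.0029 and 0.077), so these are not separate checks. With so few libraries the correlations cannot decide whether replicate numbers pair samples. The main fits treated samples as unpaired. Sequences were not used here.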

Additional observations from a re-analysis of the deposited data

Results flagged for a closer look

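For 14 of the genes named, the change at 4 against 0 dpa differed between fibroblasts and whole fins by edgeR's test of the difference itself, and all 14 rose more in fibroblasts. On the log2 scale the differences were 2.49 for atp5o, 2.46 for ndufa2, 2.42 for atp5g3b, 2.41 for atp5l, 2.13 for cox4i1, 1.69 for ndufa4l, 1.56 for cox5aa, 1.505 for cox7a2a, 1.48 for cox8a and 1.43 for cox6a1. They were smaller for ndufs1 (0.83), sdhb (0.71), uqcrfs1 (0.62) and uqcrc1 (0.52). As given above, the calls of sdhb, uqcrfs1 and uqcrc1 were lost in most fits without 1 library. The genes atp5o, ndufa2, atp5g3b and atp5l were named for the largest called differences in this same test, so their calls were given in advance. Of all 90 members tested 74 were called larger and 0 smaller, beside 18.8% and 17.4% of all genes, so the shared direction of the 14 is no separate result. Tissue, batch, pool size and the stress genes of the fibroblast libraries at 0 dpa cannot be told apart in these differences. The same holds for the transgene, earlier fin clip, tamoxifen and regrowth given for the fibroblast fish.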

How the results depend on the processing

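In the replicated comparisons, counts of members that rose held within 1.5 times the reported value under the alternatives run, except in whole fins at 4 dpa with library size alone (68). Outside batch 2, counts of members that fell rest on few genes. In whole fins at 4 dpa there were 3 with DESeq2, with a fit of all groups and with library size alone, and 2 to 14 without 1 library, with 14 lacking replicate 1 of 0 dpa. In fibroblasts there was 1 with library size alone, and 0 to 4 without 1 library, with 0 lacking either 4 dpa replicate. For the difference of responses there was 1 in a fit of all groups and 0 to 1 without 1 library. All genes called numbered 3827 to 7525 in fibroblasts without 1 library, with 3827 and 4026 lacking 4 dpa replicate 1 or 2, and 2971 to 5167 for the difference, with 2971 lacking replicate 1 of fins at 4 dpa. With a 2-fold limit 2 members were higher and 2 lower at 2 dpa in both genotypes. The replicate block gave 41 higher and 5 lower members in fins at 4 dpa, 4 and 79 in batch 2, 79 and 4 in fibroblasts and 72 and 0 for the difference, and among the genes named ended the calls of cox8a in fins (0.32), cox7a1 in batch 2 (0.82) and uqcrc1 in the difference (0.52). Signs turned for atp5j in fins with library size alone (0.14), and otherwise for uncalled genes. In fins these were, with library size, cox5aa (0.42), ndufv1 (0.37), sdha (0.25) and cox4i1 (0.32), with a fit of all groups cox5aa (0.058), and, over the fits without 1 library, cox5aa (-0.13 to 0.091), ndufv1 (-0.29 to 0.15), sdhb (-0.082 to 0.34) and cox4i2 (-0.016 to 0.32). In fibroblasts they were cox7a1 (0.19) with library size, cox4i2 (-0.039) with all groups, and without 1 library cox4i2 (-0.056 to 0.15) and cox8b (-0.44 to 1.48). In the difference without 1 library they were cox4i2 (-0.39 to 0.16), ndufv1 (-0.11 to 0.54) and cox6a2 (-0.14 to 1.25). The causes were not tested. Low counts limit cox6a2, cox7a1, cox8b, cox5b2, ndufa4 and sdhda.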
